A study of Homo sapiens with 15 samples.

Results

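This section describes the genes that set passage through G1 in 5 human ovarian cancer cell lines: the D-type cyclins CCND1, CCND2 and CCND3, the E-type cyclins CCNE1 and CCNE2, the kinases CDK4 and CDK6, and the inhibitors CDKN1B, CDKN2A and CDKN2B. The members were chosen by symbol, matched through Ensembl gene identifiers, and 9 of the 10 matched a row among the 16604 genes of the deposited table. CCND2 matched no row and was not analysed here. No rule on measured values picked the members, but they were listed with earlier results of these data known.

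RNA of 15 samples was sequenced after polyA capture, with 3 biological replicates for each of 5 lines of high-grade serous ovarian cancer (HGSC), an epithelial tumour treated with platinum drugs. Ovcar4Parental (the OVCAR4 line) is sensitive to carboplatin and cisplatin. Ov4Cis is cisplatin resistant and Ov4Carbo is carboplatin resistant; each was raised by growth in rising drug until its IC50 had increased by 2 to 10 fold. Ov4Carbo4 and Ov4Carbo7 are carboplatin-resistant lines that were each grown from a single Ov4Carbo cell, so each of them is 1 clone, and the replicates of a clone do not sample the variety of such clones. All lines were cultured in DMEM with serum and antibiotics, and the labels do not say whether drug was present at harvest. Within Ov4Carbo and its clones the 3 lines share an origin and are not independent selections.

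The D-type cyclins bind CDK4 or CDK6, and the E-type cyclins bind CDK2. Together these kinases phosphorylate the retinoblastoma protein, which then releases E2F transcription factors and lets S-phase genes be transcribed. CDKN2A encodes p16INK4a and CDKN2B encodes p15INK4b, which block CDK4 and CDK6, while CDKN1B encodes p27, which blocks cyclin E with CDK2. In high-grade serous ovarian cancer CCNE1 gain and loss of p16INK4a control are well-known routes past this checkpoint.

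Values are log2 RPKM (reads scaled to gene length and library size, on a log2 scale), normalized by the authors for GC content and length. A difference of 1 on this scale is a doubling. The values are per length, so levels of different genes can be set side by side. To be called, a gene needed a limma adjusted p under 0.05 (Benjamini-Hochberg over all 16604 genes) and a log2 fold change of 1 or more in size. The 4 resistant lines share the same parental samples as their control. Counting error cannot be given, because the table does not hold read depth. In such bulk samples fewer cells with a transcript and less transcript per cell cannot be told apart.

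The tissue label was checked against marker genes. PAX8, the Müllerian lineage factor, had line means of 5.85 to 6.74, and KRT8, KRT18, EPCAM and SOX17 were at or above a log2 RPKM of 1 in every line, while WT1 was low (−5.07 to −1.52). Of 10 serous markers, 9 reached 1 in the parental line, 5 in Ov4Cis, 9 in Ov4Carbo, and 8 and 8 in the clones Ov4Carbo4 and Ov4Carbo7. In Ov4Cis the means were −0.57 for KRT7, −3.52 for CDH1, −1.73 for MUC16 and −2.29 for MSLN. Their parental means were 8.28, 4.63, 4.60 and 1.89. EPCAM had a mean of 1.17 in Ov4Cis and 5.98 in the parental line. MUC16 was at −0.21 in Ov4Carbo7 and MSLN at 0.42 in Ov4Carbo4. Of the markers of other cells, CD14 was the 1 leukocyte gene of 5 with a row (line means −1.34 to 0.58), COL3A1 and DCN had no row, and COL1A1 (fibroblast) and CDH5 (endothelial) were at or above 1 in all lines. The fibroblast markers LUM (−6.02 to −1.73) and PDGFRB (−5.66 to −1.51) were under 1 in all lines. So was the endothelial marker VWF (−1.65 to −0.18). COL1A2 (fibroblast) was at 1.39 in the parental line and at −4.41 to −2.85 in the resistant lines. The log2 sum of the 2 endothelial markers with a row ran from 2.07 to 2.80 in the parental and Ov4Carbo samples and from 3.14 to 5.34 in the other lines; its part in the results below was not tested. The mean root-mean-square difference between replicates was largest in Ov4Carbo, at 0.69, against 0.34 to 0.48 in the other lines. By the numbers in their titles the samples form 2 series. Both clones and Ov4Carbo replicate 1 are in the first title series, and the parental line, Ov4Cis and the other 2 Ov4Carbo samples are in the second. What the series stand for is not said in the labels, and for the clones a difference from the parental line cannot be told apart from the title series except through Ov4Carbo.

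The promoters of the 3 members that were called lower against the parental line are shown first, with that of CDK4 as the paralog of CDK6 that was not called. Each is the 250 bases before an annotated start, 5′ to 3′ on the gene's strand, from RefSeq (GRCh38.p14), a newer build than that of the authors' table. Capitals mark the GC box word GGGCGG or its complement CCGCCC, the core of Sp1-family sites, and the E-box CACGTG, the core of MYC-family sites. The windows are chr19:29811741-29811990 (plus strand) for CCNE1, chr7:92836574-92836823 (minus strand) for the first annotated start of CDK6, chr9:22009306-22009555 (minus strand) for CDKN2B and chr12:57752311-57752560 (minus strand) for CDK4.
CCNE1: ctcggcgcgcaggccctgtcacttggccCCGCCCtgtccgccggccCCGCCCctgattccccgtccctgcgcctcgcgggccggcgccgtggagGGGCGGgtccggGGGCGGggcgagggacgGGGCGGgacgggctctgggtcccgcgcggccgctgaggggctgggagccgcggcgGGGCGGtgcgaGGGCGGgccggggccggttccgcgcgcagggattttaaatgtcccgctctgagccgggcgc
CDK6: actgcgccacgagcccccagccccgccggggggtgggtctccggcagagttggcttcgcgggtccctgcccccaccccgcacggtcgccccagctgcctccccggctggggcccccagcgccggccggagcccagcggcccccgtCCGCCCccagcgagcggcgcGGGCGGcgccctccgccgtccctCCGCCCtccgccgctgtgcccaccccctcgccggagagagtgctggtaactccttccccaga
CDKN2B: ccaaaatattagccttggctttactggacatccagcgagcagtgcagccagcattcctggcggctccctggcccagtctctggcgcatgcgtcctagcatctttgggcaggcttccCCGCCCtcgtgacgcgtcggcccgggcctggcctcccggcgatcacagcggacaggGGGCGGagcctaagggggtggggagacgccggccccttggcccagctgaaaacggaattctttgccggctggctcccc
CDK4: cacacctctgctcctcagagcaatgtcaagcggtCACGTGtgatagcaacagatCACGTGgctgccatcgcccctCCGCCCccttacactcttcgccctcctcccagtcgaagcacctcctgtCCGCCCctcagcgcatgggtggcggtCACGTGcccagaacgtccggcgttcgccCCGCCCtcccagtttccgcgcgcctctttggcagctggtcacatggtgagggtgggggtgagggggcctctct

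These windows are GC rich: G and C made up 81.2% of the bases for CCNE1, 80% for CDK6, 66.4% for CDKN2B and 65.6% for CDK4. CCNE1 held 7 GC boxes, CDK6 held 3, CDKN2B held 2 and CDK4 held 3. Promoters were found for 7 members with 11 starts (none for CCND1, CCND2 and CCNE2), and all 7 members had a GC box in at least 1 of their windows (8 of 11 windows, against 42.6% of 35114 promoters of the same length). CDK4 alone had the E-box, 3 times, a word held by 6.35% of all windows. None of the 11 windows held the E2F words TTTCCCGC, TTTCGCGC, TTTGCCGC or TTTGGCGC (2.79% of all windows), the TATA word TATAAA (10.7%) or the AP-1 words TGAGTCA and TGACTCA (4.2%), on either strand. TGAGTCA and TGACTCA are each other's reverse complement, and an E2F word such as TTTCCCGC can share its last bases with a GC box. GC boxes were found in members that fell and in members that were not called alike, and a match is a description of letters only.

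Against the parental line, CCNE1, CDK6 and CDKN2B were the members that were called, always lower, and no member was called higher in any of the 4 resistant lines. At an unadjusted limma p under 0.05, and in either direction, 5, 5, 5 and 7 members passed in Ov4Cis, Ov4Carbo, Ov4Carbo4 and Ov4Carbo7. The share of all genes at an unadjusted p is not given here. Of all genes 8.46% were called higher in Ov4Cis, 5.76% in Ov4Carbo, and 7.43% and 9.26% in the clones Ov4Carbo4 and Ov4Carbo7. In Ov4Cis CCNE1 and CDKN2B were called (2 of 9 members, against 7.41% of all genes called lower and 15.9% called in either direction). In Ov4Carbo CCNE1 and CDK6 were called (2 of 9, against 6.93% lower and 12.7% in all). In Ov4Carbo4 and Ov4Carbo7 all 3 genes were called (3 of 9 in each), where 7.7% and 7.75% of all genes were called lower and 15.1% and 17% in either direction. CCNE1 was the member called lower in all 4 lines, as were 1.65% of all genes. The median log2 fold change of the 9 members was −0.35 in Ov4Cis, −0.46 in Ov4Carbo, and −0.24 and −0.57 in the clones Ov4Carbo4 and Ov4Carbo7, where that of all genes was 0.04, 0.03, 0.07 and 0.02. Over the 4 lines 10 of 36 member comparisons (27.8%) were called, and over all genes 15.2%.

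At an adjusted p under 0.05 with no limit on fold, 4 of 9 members passed in Ov4Cis (36.2% of all genes), 4 in Ov4Carbo (34%), 3 in Ov4Carbo4 (39.7%) and 5 in Ov4Carbo7 (42.6%), so that by this rule the members' share was near that of all genes. The F-test for any difference among the 5 lines passed for 7 of 9 members, against 76.9% of all genes; CCND1 (adjusted p = 0.182) and CDKN2A (adjusted p = 0.548) did not pass. The plot of fold changes shows these sizes with their intervals.

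**Figure D1:**
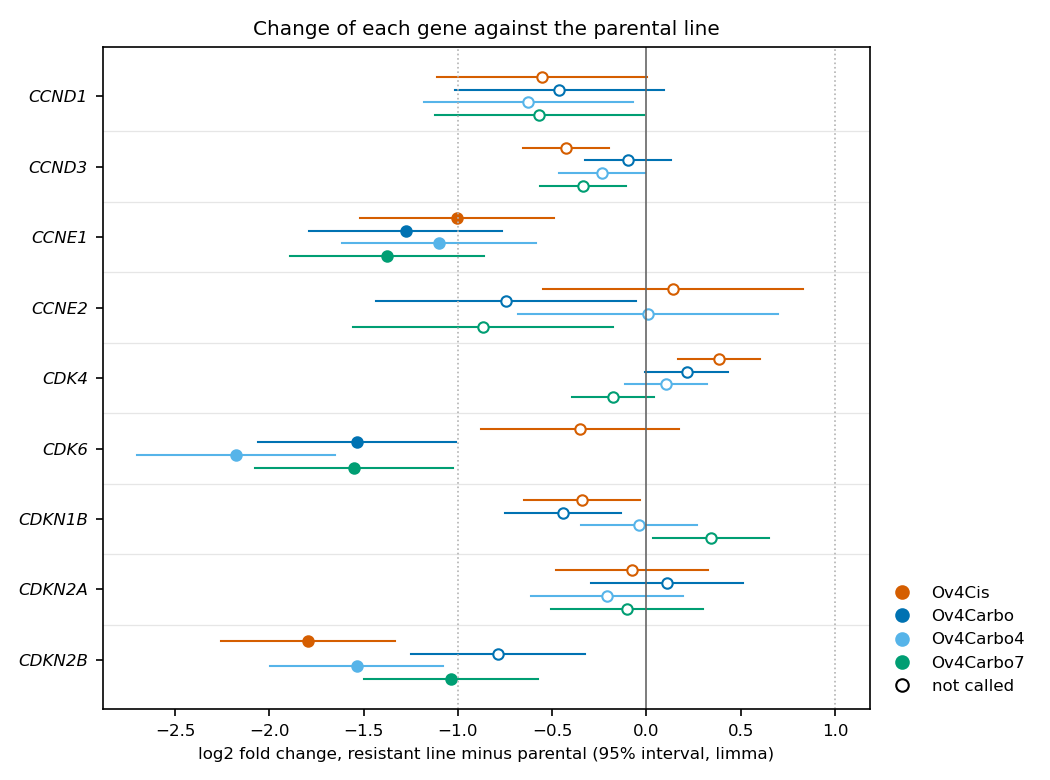
Log2 fold change of each of the 9 members (rows) in each resistant line minus the parental line, with 95% intervals from limma; filled points were called, open points were not, and dotted lines mark a log2 fold change of 1 in either direction. All 10 filled points lie on the lower side and belong to CCNE1 (4 lines), CDK6 (3 carboplatin lines) and CDKN2B (3 lines).

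No D-type cyclin was called in any resistant line with the design of 1 coefficient for each line. CCND1 (ENSG00000110092), the cyclin D1 gene on chromosome 11, had log2 RPKM levels of 6.07, 6.76 and 6.94 in the parental replicates 1 to 3. Its levels were 5.70, 6.29 and 6.11 in Ov4Cis and 6.63, 5.79 and 5.96 in Ov4Carbo. They were 6.07, 5.77 and 6.05 in Ov4Carbo4 and 5.81, 6.07 and 6.19 in Ov4Carbo7. The highest 2 samples were parental, but parental replicate 1 lay among the resistant samples, and every resistant line overlapped the parental range. The fold changes ran from −0.46 (Ov4Carbo, 95% interval −1.02 to 0.09) to −0.63 (Ov4Carbo4, −1.18 to −0.07), with limma adjusted p values of 0.0704 to 0.184. Without parental replicate 1 the adjusted p was 0.0234 in Ov4Cis, 0.0415 in Ov4Carbo, and 0.015 and 0.0185 in the clones Ov4Carbo4 and Ov4Carbo7, with log2 fold changes of −0.82, −0.72, −0.89 and −0.83. Without Ov4Carbo replicate 1 it was 0.0374 in Ov4Carbo (−0.71) and 0.0374 in Ov4Carbo4, and with a variance trend 0.0479 in Ov4Carbo4. With a term for the 2 series of sample titles, CCND1 was called lower in both clones, by −1.38 in Ov4Carbo4 (adjusted p = 0.0237) and −1.32 in Ov4Carbo7 (adjusted p = 0.0311), and differed by −0.71 in Ov4Carbo (adjusted p = 0.0374), so that whether the CCND1 difference passes the test depends on single libraries and on that term.

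CCND3 (ENSG00000112576), the cyclin D3 gene on chromosome 6, was steadier. Its levels were 5.54, 5.42 and 5.43 in the parental line, 4.97, 4.99 and 5.15 in Ov4Cis, and 5.56, 5.28 and 5.26 in Ov4Carbo. They were 5.30, 5.10 and 5.28 in Ov4Carbo4 and 5.15, 5.19 and 5.04 in Ov4Carbo7. All Ov4Cis, Ov4Carbo4 and Ov4Carbo7 samples lay below all parental samples, while Ov4Carbo overlapped them; non-overlapping groups were found for 5 of 9 members in Ov4Cis (53.4% of all genes), 5 in Ov4Carbo (38.4%), 6 in Ov4Carbo4 (58.1%) and 6 in Ov4Carbo7 (56.5%). CCND3 fell by 0.43 ± 0.10 (SE) on the log2 scale in Ov4Cis (limma adjusted p = 0.00655) and differed by −0.34 ± 0.10 in Ov4Carbo7 (adjusted p = 0.0208), under the fold limit for a call. The Ov4Carbo7 difference missed the threshold without Ov4Carbo7 replicate 3 (adjusted p = 0.0765) or without parental replicate 1 (adjusted p = 0.0657). Within a sample CCND1 exceeded CCND3 by a line mean of 0.74 to 1.13 on the log2 scale in every line.

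CCNE1 (ENSG00000105173), the cyclin E1 gene on chromosome 19, was lower in every resistant line. Its log2 RPKM levels were 6.32, 6.26 and 6.42 in the parental replicates. They were 4.70, 5.68 and 5.59 in Ov4Cis, 5.46, 4.93 and 4.78 in Ov4Carbo, 5.23, 5.06 and 5.40 in Ov4Carbo4, and 4.80, 4.98 and 5.09 in Ov4Carbo7. All 12 resistant samples lay below all 3 parental samples, and the resistant lines overlapped each other. Against the parental mean of 6.33 ± 0.08 (SD, n = 3), the level was 2.01-fold lower in Ov4Cis, 2.42-fold lower in Ov4Carbo, 2.14-fold lower in Ov4Carbo4 and 2.60-fold lower in Ov4Carbo7. The limma adjusted p was 0.00495 in Ov4Cis (log2 fold change −1.01 ± 0.24 SE), 0.00148 in Ov4Carbo (−1.28), 0.00276 in Ov4Carbo4 (−1.10) and 0.000526 in Ov4Carbo7 (−1.38). The Ov4Cis value sits at the fold limit: it was −0.70 (adjusted p = 0.0125) without Ov4Cis replicate 1, the lowest sample of all, −0.96 (adjusted p = 0.019) without parental replicate 3 and −0.99 on log2(RPKM + 1), so that the call, though not the direction, rests on those libraries and on the scale. In the order of the lines only the step from parental to Ov4Cis differed beyond its spread, and the 3 steps from Ov4Cis through Ov4Carbo4 and Ov4Carbo to Ov4Carbo7 did not (adjusted p of 0.572 to 0.779).

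CCNE2 (ENSG00000175305), the gene of the second E-type cyclin, was expressed at a lower level and followed another pattern. Its log2 RPKM levels were 2.34, 3.10 and 3.41 in the parental line, 2.74, 3.30 and 3.23 in Ov4Cis, and 2.89, 1.93 and 1.79 in Ov4Carbo. They were 3.06, 2.62 and 3.19 in Ov4Carbo4 and 1.88, 2.08 and 2.28 in Ov4Carbo7. Only the Ov4Carbo7 samples lay wholly below the parental ones, and the parental and Ov4Carbo replicates were spread widely (SD 0.55 and 0.60). The difference from parental was −0.87 ± 0.32 (SE) in Ov4Carbo7 (limma adjusted p = 0.0431), −0.74 in Ov4Carbo (adjusted p = 0.0892), 0.14 in Ov4Cis (adjusted p = 0.769) and 0.01 in Ov4Carbo4 (adjusted p = 0.986). Single libraries move these values past the threshold: without Ov4Carbo replicate 1 the Ov4Carbo difference was −1.09 (adjusted p = 0.0116) and without parental replicate 1 it was −1.05 (adjusted p = 0.0236), while the Ov4Carbo7 difference was −1.17 (adjusted p = 0.0106) without parental replicate 1 and missed the threshold in 9 of the 15 fits that left out 1 library (adjusted p up to 0.166). With the title-series term CCNE2 was called lower in Ov4Carbo (−1.09, adjusted p = 0.0116) and in Ov4Carbo7 (−1.90, adjusted p = 0.013). Ov4Cis exceeded Ov4Carbo7 by 1.01 (adjusted p = 0.0235), a call lost without Ov4Cis replicate 2 or 3, without Ov4Carbo7 replicate 1 or 2, and on log2(RPKM + 1). CCNE1 exceeded CCNE2 within a sample by 3.38 ± 0.52 (SD, n = 3) in the parental line and by 2.23 to 2.87 in the resistant lines.

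CDK4 (ENSG00000135446), on chromosome 12, had a high level in all lines. The 3 replicates had log2 RPKM values of 6.30, 6.43 and 6.43 in the parental line, 6.64, 6.89 and 6.79 in Ov4Cis, and 6.64, 6.50 and 6.66 in Ov4Carbo. They were 6.52, 6.48 and 6.48 in Ov4Carbo4 and 6.03, 6.31 and 6.29 in Ov4Carbo7. The whole range of its samples was 6.03 to 6.89, and the samples of Ov4Cis, Ov4Carbo and Ov4Carbo4 lay above all parental ones. CDK4 rose by 0.38 ± 0.10 (SE) on the log2 scale in Ov4Cis, a 1.31-fold difference (limma adjusted p = 0.00952), and its other differences from parental (−0.18 to 0.21) did not pass. Ov4Cis exceeded Ov4Carbo7 by 0.56 (adjusted p = 0.000822), under the fold limit for a call.

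CDK6 (ENSG00000105810), the paralogous kinase on chromosome 7, was lower in the carboplatin-resistant lines. Its log2 RPKM levels were 5.87, 6.80 and 6.46 in the parental line and 5.65, 6.14 and 6.28 in Ov4Cis. They were 5.18, 4.62 and 4.71 in Ov4Carbo, 4.18, 4.10 and 4.32 in Ov4Carbo4, and 4.61, 4.77 and 5.10 in Ov4Carbo7. All 9 samples of the carboplatin lines lay below all 6 parental and Ov4Cis samples, which overlapped each other. Against parental, CDK6 fell by 1.54 ± 0.24 (SE) on the log2 scale in Ov4Carbo (2.90-fold lower, limma adjusted p = 0.000479), with log2 fold changes of −2.17 in Ov4Carbo4 (4.51-fold lower, adjusted p = 2.22e-05) and −1.55 in Ov4Carbo7 (2.93-fold lower, adjusted p = 0.000252). In Ov4Cis the difference was −0.35 (95% interval −0.88 to 0.17, adjusted p = 0.283).

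The difference between the cisplatin and carboplatin lines in CDK6 was itself tested. Ov4Cis exceeded Ov4Carbo by 1.18 ± 0.24 (SE; limma adjusted p = 0.00258), Ov4Carbo4 by 1.82 (adjusted p = 7.23e-05) and Ov4Carbo7 by 1.20 (adjusted p = 0.00187). These 3 differences, and the 3 from parental, were called under every alternative run. Of these comparisons, the second title series alone was fitted just for Ov4Carbo against parental. Ov4Cis against Ov4Carbo was not tested within it. The adjacent lines Ov4Carbo and Ov4Carbo7 did not differ beyond their spread (−0.01, 95% interval −0.54 to 0.51). Ov4Carbo4 was lower than Ov4Carbo by a difference of −0.64 (adjusted p = 0.0497) and Ov4Carbo7 higher than Ov4Carbo4 by 0.62 (adjusted p = 0.0465), both close to the threshold; leaving out 1 library gave adjusted p values of up to 0.153 for the first and 0.159 for the second.

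**Figure D2:**
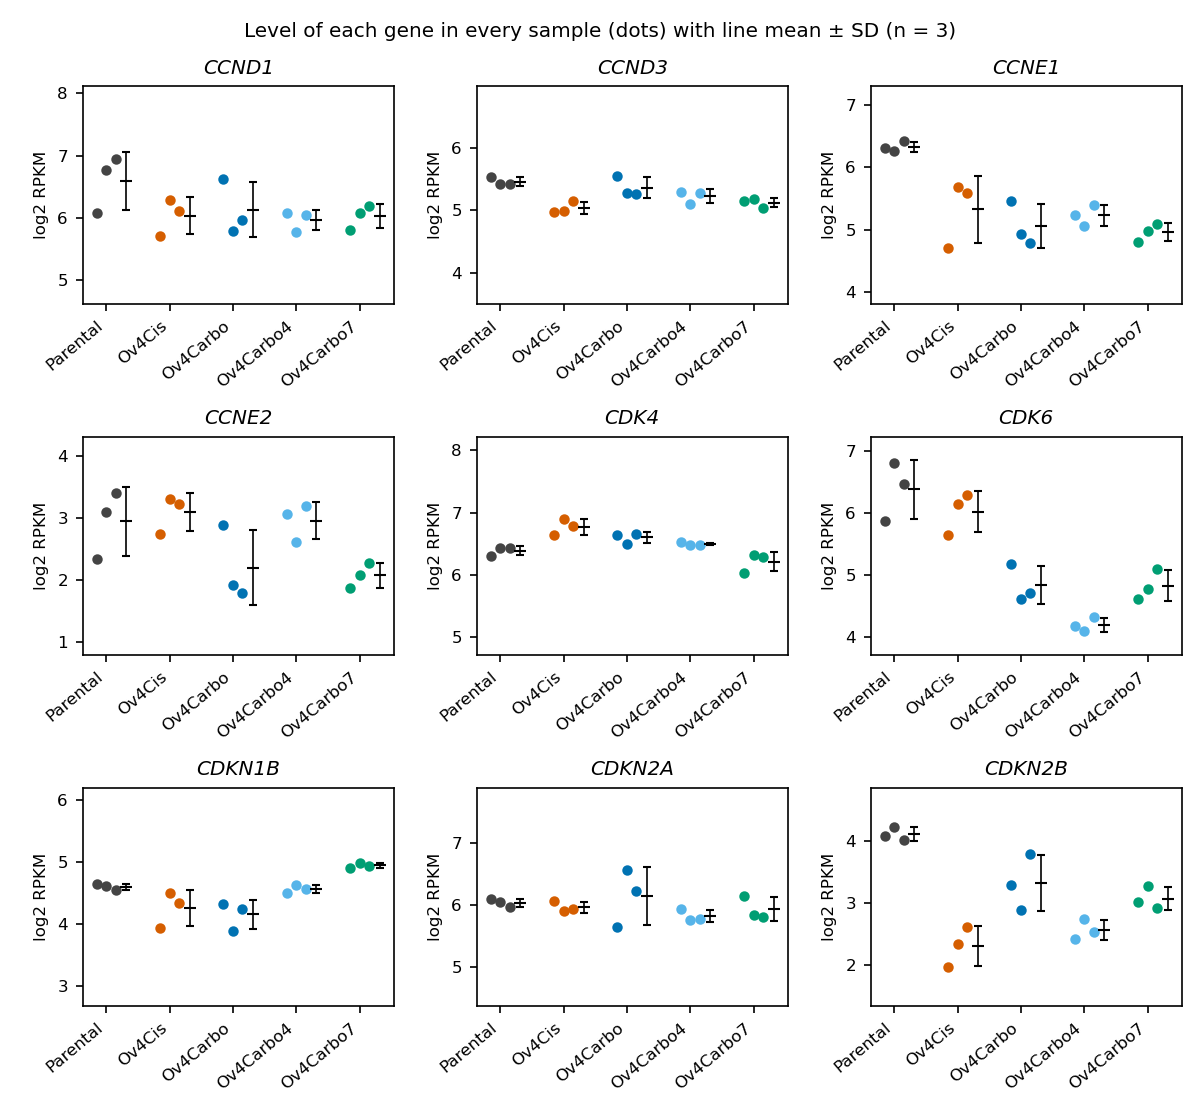
Log2 RPKM (vertical axis, the same span in each panel) of the 9 members in the 15 samples, by line, with replicates 1 to 3 from left to right as dots and the mean ± SD (n = 3) beside them. CCNE1 and CDKN2B were highest in all 3 parental samples, and CDK6 separated the parental and Ov4Cis samples from the 9 carboplatin samples. CCND3, CDK4 and CDKN2A stayed within 0.59, 0.86 and 0.92 over all samples.

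The balance of the paralogous kinases differed between lines as a description of the same values. Within a sample, CDK6 minus CDK4 was −0.01 ± 0.40 (SD, n = 3) in the parental line, so that both kinases had like levels per length. It was −0.75 ± 0.24 in Ov4Cis, −1.76 ± 0.27 in Ov4Carbo, −2.29 ± 0.12 for Ov4Carbo4 and −1.38 ± 0.18 for Ov4Carbo7. CDK4 thus exceeded CDK6 in all 12 resistant samples and in 1 of 3 parental samples.

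CDKN1B (ENSG00000111276), the p27 gene on chromosome 12, differed most between the carboplatin population and a clone of it. Replicates 1 to 3 had log2 RPKM values of 4.65, 4.61 and 4.55 in the parental line, 3.94, 4.50 and 4.34 in Ov4Cis, and 4.33, 3.89 and 4.25 in Ov4Carbo. They were 4.50, 4.63 and 4.56 in Ov4Carbo4 and 4.91, 4.99 and 4.93 in Ov4Carbo7. All Ov4Cis and Ov4Carbo samples lay below the parental ones, all Ov4Carbo7 samples lay above, and Ov4Carbo4 overlapped them. CDKN1B was lower than parental by a difference of −0.44 ± 0.14 (SE) in Ov4Carbo (limma adjusted p = 0.0296); the other differences were −0.34 in Ov4Cis (adjusted p = 0.0792), −0.04 in Ov4Carbo4 (adjusted p = 0.857) and 0.34 in Ov4Carbo7 (adjusted p = 0.0673). The Ov4Carbo difference missed the threshold without Ov4Carbo replicate 2 (adjusted p = 0.109), without any 1 of the parental replicates (adjusted p of 0.0561 to 0.0763), within the second title series (adjusted p = 0.0732) and in a fit of just the lines compared (adjusted p = 0.119). Ov4Carbo7 exceeded Ov4Carbo by 0.79 (adjusted p = 0.00107) and it exceeded Ov4Cis too (Ov4Cis minus Ov4Carbo7 −0.69, adjusted p = 0.00215). With a term for the title series Ov4Cis minus Ov4Carbo7 was −0.43 (adjusted p = 0.218).

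CDKN2A (ENSG00000147889) and CDKN2B (ENSG00000147883) lie next to each other on chromosome 9, with the antisense gene CDKN2B-AS1 over them. They are paralogs of similar sequence, and CDKN2A has an alternative start that encodes p14ARF, so the value of CDKN2A holds both products and a few reads could belong to either gene. CDKN2A had log2 RPKM levels of 6.09, 6.05 and 5.97 in the parental line, 6.06, 5.90 and 5.93 in Ov4Cis, and 5.65, 6.57 and 6.22 in Ov4Carbo. They were 5.94, 5.76 and 5.78 in Ov4Carbo4 and 6.15, 5.84 and 5.81 in Ov4Carbo7. Ov4Carbo held both the lowest and the highest sample of CDKN2A, replicate 1 and replicate 2. No difference from parental passed (−0.21 to 0.11), and the 95% intervals reached from −0.61 to 0.51. Without Ov4Carbo replicate 1, CDKN2A passed the F-test over the 5 lines (adjusted p = 0.0211).

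CDKN2B was lower in all 4 resistant lines while its neighbour was not. Its log2 RPKM levels were 4.08, 4.22 and 4.01 in the parental line and 1.97, 2.34 and 2.61 in Ov4Cis. They were 3.28, 2.88 and 3.78 in Ov4Carbo, 2.42, 2.74 and 2.53 in Ov4Carbo4, and 3.01, 3.27 and 2.92 in Ov4Carbo7. All 12 resistant samples lay below all 3 parental samples. CDKN2B fell by 1.80 ± 0.21 (SE) on the log2 scale in Ov4Cis (3.47-fold lower, limma adjusted p = 3.03e-05), with log2 fold changes of −1.54 in Ov4Carbo4 (2.90-fold lower, adjusted p = 0.000118) and −1.03 in Ov4Carbo7 (2.05-fold lower, adjusted p = 0.00184). In Ov4Carbo the difference was −0.79 (adjusted p = 0.0135), under the fold limit. CCNE1 and CDKN2B were thus the members with an adjusted p under 0.05 on the lower side in all 4 lines, as were 3.26% of all genes.

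Whether the CDKN2B differences from parental in Ov4Carbo and Ov4Carbo7 pass the thresholds depends on single libraries. Without Ov4Carbo replicate 3 the Ov4Carbo difference was −1.02 and called (adjusted p = 0.00247). It missed the threshold without Ov4Carbo replicate 2 (adjusted p = 0.0529), without parental replicate 2 (adjusted p = 0.051) and within the second title series (−0.77, adjusted p = 0.0804) and in a fit of just the lines compared (adjusted p = 0.0818). The Ov4Carbo7 difference fell under the fold limit without Ov4Carbo7 replicate 3 (−0.96), without parental replicate 2 (−0.97) and on log2(RPKM + 1) (−0.95), and with a term for the title series it was −0.99 with an adjusted p of 0.0883. Ov4Cis was lower than Ov4Carbo by a difference of −1.01 (adjusted p = 0.00304), a call lost without Ov4Carbo replicate 3 (−0.78), without Ov4Cis replicate 1 (−0.84), on log2(RPKM + 1) (−0.88) and in a fit of just those lines (adjusted p = 0.0525). The Ov4Cis and Ov4Carbo4 falls from parental were called under every alternative run.

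**Figure D3:**
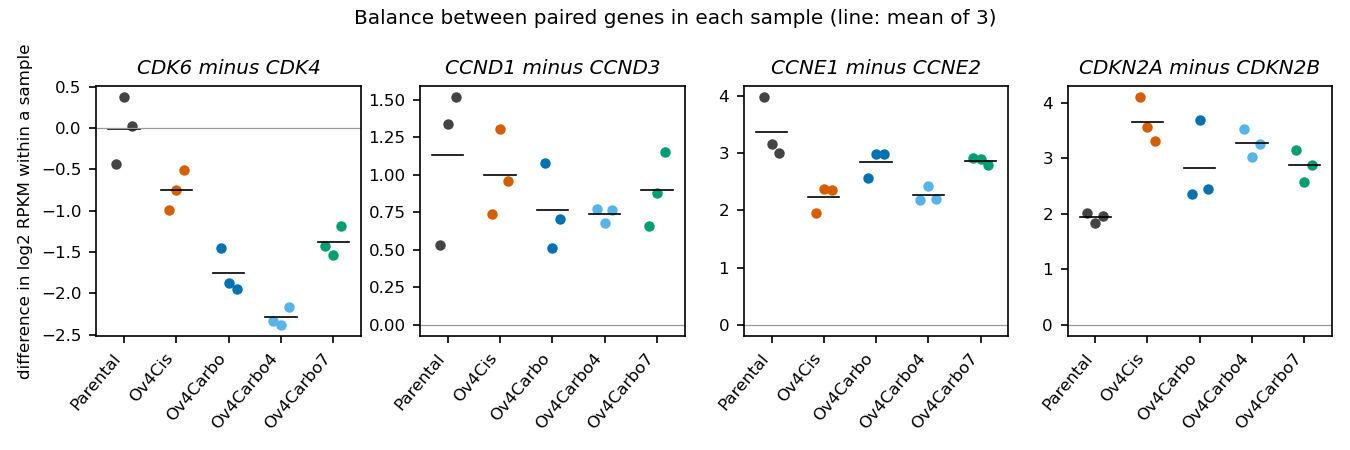
Difference in log2 RPKM between 2 related genes within each sample (dots, replicates 1 to 3 from left to right) by line, with the line mean as a bar: CDK6 minus CDK4, CCND1 minus CCND3, CCNE1 minus CCNE2 and CDKN2A minus CDKN2B; the vertical scales differ. CDK6 minus CDK4 was near 0 in the parental line and −0.75 to −2.29 in the resistant lines, and CDKN2A minus CDKN2B was 1.94 in the parental line and 2.83 to 3.66 in the others.

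Within a sample CDKN2A exceeded CDKN2B by 1.94 ± 0.10 (SD, n = 3) on the log2 scale in the parental line, 3.66 ± 0.40 in Ov4Cis, 2.83 ± 0.74 in Ov4Carbo, 3.26 ± 0.25 for Ov4Carbo4 and 2.87 ± 0.29 for Ov4Carbo7. The smallest resistant difference, 2.36 in Ov4Carbo replicate 1, was above the largest parental one, 2.02.

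Among the resistant lines 5 of 54 member comparisons over the 6 pairs of lines were called (9.26%), against 15.6% over all genes. They were the 3 CDK6 differences of Ov4Cis from the carboplatin lines, CDKN2B between Ov4Cis and Ov4Carbo, and CCNE2 between Ov4Cis and Ov4Carbo7. In Ov4Cis against Ov4Carbo 2 of 9 members were called (13.8% of all genes), against Ov4Carbo4 1 (16.8%), and against Ov4Carbo7 2 (14.7%). No member was called between Ov4Carbo and its clones or between the clones in limma: 0 of 9 in Ov4Carbo4 against Ov4Carbo (14.2% of all genes), 0 in Ov4Carbo7 against Ov4Carbo (13.3%) and 0 in Ov4Carbo7 against Ov4Carbo4 (20.9%). At an unadjusted limma p under 0.05 these 3 contrasts held 4, 3 and 5 members. The share of all genes by that rule is not given here. By adjusted p alone 51.1% of all genes passed in Ov4Carbo7 against Ov4Carbo4. With the lines of each member set in order of their means, 4 of the 36 adjacent pairs had an adjusted p under 0.05: parental above Ov4Cis in CCNE1, Ov4Cis above Ov4Carbo and Ov4Carbo7 above Ov4Carbo4 in CDK6, and parental above Ov4Carbo in CDKN2B.

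The genes beside the 3 called members on their chromosomes were read from the GENCODE v29 order, 2 genes of the table on each side. Around CCNE1, C19orf12 differed by 0.02 to 0.14 in the 4 resistant lines, PLEKHF1 by −0.52 to 0.04 and ZNF507 by −0.31 to 0.41, none of them called. URI1, the next gene and a prefoldin-like chaperone gene, differed by −0.63 in Ov4Carbo7 and by −0.41 to −0.03 in the other lines, also with no call. By adjusted p alone URI1 was lower in Ov4Carbo7 (limma adjusted p = 0.000477) and in Ov4Cis (−0.41, adjusted p = 0.00878). ZNF507 was higher by that rule in Ov4Carbo4 (0.41, adjusted p = 0.0151). Around CDKN2B, the antisense gene CDKN2B-AS1 differed by −0.25 to 0.09 and CLIC4P1 by −0.70 to 0.50, with no call. MTAP, which salvages methionine and lies beside CDKN2A, differed by −0.21 to 0.08. On the other side of CDKN2B, DMRTA1 was called higher in Ov4Cis (2.97), Ov4Carbo (1.34) and Ov4Carbo7 (2.64) and lower in Ov4Carbo4 (−1.10), from a parental mean of −2.80.

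Around CDK6 the antisense gene CDK6-AS1 was called lower in the same 3 lines as CDK6: by −3.42 in Ov4Carbo, −3.04 in Ov4Carbo4 and −4.90 in Ov4Carbo7, from a low parental level of −1.88. The sources used here do not say whether reads were counted by strand, so reads of CDK6 and CDK6-AS1 cannot be told apart. On the other side FAM133B differed by −0.44 to 0.04 and RBM48 by −0.43 to 0.27, with no call. By adjusted p alone RBM48 was lower in Ov4Carbo7 (−0.43, limma adjusted p = 0.00252) and higher in Ov4Cis (0.27, adjusted p = 0.0364). SAMD9, an antiviral gene, was called higher in Ov4Carbo7 (1.40, limma adjusted p = 0.0457) and differed by 0.91 to 1.26 in the other lines.

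**Figure D4:**
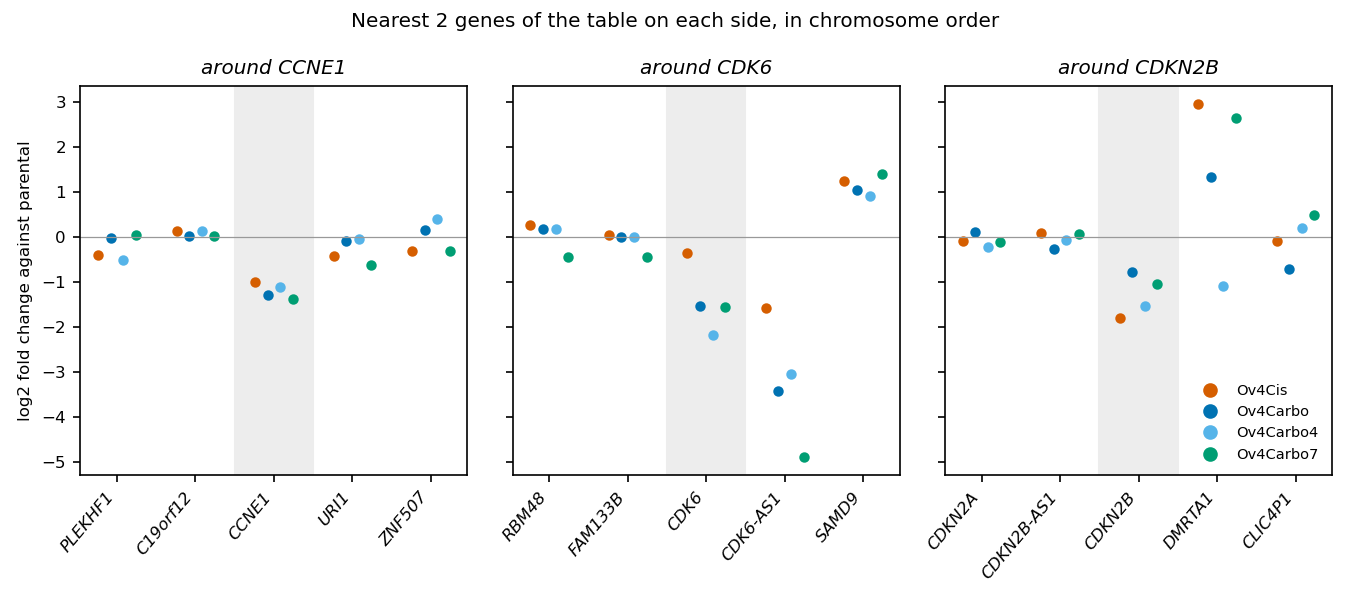
Log2 fold change against the parental line (vertical axis) of CCNE1, CDK6 and CDKN2B (shaded) and of the 2 nearest genes of the table on each side in chromosome order, with 1 dot for each resistant line. The shaded genes lie below 0 in all 4 lines, C19orf12, FAM133B and CDKN2B-AS1 on 1 side of them lie between −0.44 and 0.14, and on the other side URI1 lies between −0.63 and −0.03, CDK6-AS1 between −4.90 and −1.58 and DMRTA1 between −1.10 and 2.97.

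The other genes of the G1 to S pathway were taken from 6 lists. Of 13 pocket protein and E2F genes, 1 was called lower in Ov4Cis, 1 in Ov4Carbo, and 0 and 1 in the clones Ov4Carbo4 and Ov4Carbo7. Of all genes 7.41%, 6.93%, 7.7% and 7.75% were called lower in these lines, in that order. RB1, the retinoblastoma gene itself, had levels of 4.70, 4.57 and 4.68 in the parental line and 3.33, 3.57 and 3.61 in Ov4Cis, a difference of −1.14 (limma adjusted p = 1.16e-05) with no overlap; in Ov4Carbo7 it differed by −0.61 (adjusted p = 0.00144). E2F8, a repressor of the family, was called in Ov4Carbo (−1.11) and TFDP1, the dimer partner of E2F, in Ov4Carbo7 (−1.04). By adjusted p alone 8 of these 13 genes were lower in Ov4Carbo7 and 1 higher (20.4% and 22.2% of all genes), with a list median of −0.37 against 0.02 over all genes. In Ov4Carbo4 1 was lower and 5 were higher (18% and 21.6% of all genes), with a median of 0.14 against 0.07.

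Of 7 other cyclin and kinase genes, CCNA1, a cyclin A best known from germ cells, was called lower in Ov4Cis (−2.63), Ov4Carbo (−3.48) and Ov4Carbo4 (−2.39) but not in Ov4Carbo7 (0.37). Its parental levels were 3.30, 3.27 and 2.98, those of Ov4Carbo 1.42, −0.55 and −1.77, and those of Ov4Carbo7 3.52, 3.32 and 3.81, so that the clone had the parental level and the population it came from did not. CCNA2, the S-phase cyclin, fell under the fold limit in Ov4Cis (−0.57), Ov4Carbo (−0.81) and Ov4Carbo7 (−0.50) (adjusted p of 0.00125 to 0.0144), and differed by −0.27 in Ov4Carbo4 (adjusted p = 0.166); it is named although the rule for named genes did not pick it. Of 4 other inhibitors, CDKN1C, the p57 gene, was called higher in Ov4Cis (1.04) and Ov4Carbo7 (1.35), where 8.46% and 9.26% of all genes were called higher. It rose under the fold limit in Ov4Carbo (0.90) and Ov4Carbo4 (0.84). CDKN2D fell under that limit in Ov4Cis (−0.72, limma adjusted p = 0.00325) and Ov4Carbo (−0.74, adjusted p = 0.00381). CDKN2C rose under it in Ov4Cis (0.66, adjusted p = 0.04). For CDKN1A no limma adjusted p was under 0.259, with differences of −0.85 (Ov4Carbo7) to 1.13 (Ov4Carbo) and an SE of 0.74. Its replicates were spread widely, from 1.86 to 3.90 in the parental line and from 2.26 to 5.15 in Ov4Carbo4, so a sizeable difference could be missed. The rule for named genes did not pick CDKN2D, CDKN2C or CDKN1A. Of 11 genes for the turnover of cyclins and inhibitors, such as SKP2 and FBXW7, none was called in limma in any line against parental. In Ov4Cis, Ov4Carbo, Ov4Carbo4 and Ov4Carbo7 15.9%, 12.7%, 15.1% and 17% of all genes were called. By adjusted p alone 2, 3, 5 and 6 of the 11 passed in these lines, where 36.2%, 34%, 39.7% and 42.6% of all genes did. At an unadjusted limma p under 0.05, 3, 4, 5 and 8 of the 11 passed, and the share of all genes by that rule is not given here.

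Of 14 regulators of the members' transcription, TBX2, a T-box factor known to repress the CDKN2A locus, was called higher in all 4 lines. Its log2 RPKM levels were −0.37, −0.30 and 0.36 in the parental line and 4.03, 3.17 and 3.91 in Ov4Carbo4, the highest line. Its log2 fold changes were 1.08 in Ov4Cis, 2.62 in Ov4Carbo, and 3.80 and 1.60 in the clones Ov4Carbo4 and Ov4Carbo7 (limma adjusted p of 4.03e-07 to 0.00531). MYCN, a MYC-family gene at a low level, was called lower in Ov4Cis (−2.37), Ov4Carbo (−3.77) and Ov4Carbo7 (−4.38) and not in Ov4Carbo4 (0.09), while MYC differed by −0.10 to 0.39 with no adjusted p under 0.305. TBX3, a paralog of TBX2, was called lower in Ov4Carbo (−1.59) and Ov4Carbo4 (−1.61). In all, 2 regulators were called higher and 1 lower in Ov4Cis, 1 and 2 in Ov4Carbo, 1 and 3 in Ov4Carbo4, and 1 and 1 in Ov4Carbo7. Of all genes 15.9%, 12.7%, 15.1% and 17% were called in either direction in these lines, in that order. The share of all genes called higher in all 4 lines, as TBX2 was, is not given here.

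Of 22 S-phase genes in the table (23 listed), MCM7, a subunit of the replicative helicase, was the 1 gene called, lower in Ov4Carbo7 (−1.20, limma adjusted p = 8.66e-05). In that line 7.75% of all genes were called lower. By adjusted p alone 10 of 22 were lower in Ov4Carbo7 and 0 higher, where 20.4% of all genes were lower and 22.2% higher. In Ov4Carbo4 1 was lower and 6 were higher, where 18% of all genes were lower and 21.6% higher. In either direction the list's share was thus near that of all genes in both clones (42.6% in Ov4Carbo7 and 39.7% in Ov4Carbo4). The list median was 0.05 in Ov4Cis, −0.17 in Ov4Carbo, and 0.32 and −0.39 in the clones Ov4Carbo4 and Ov4Carbo7. Between the clones, 17 of 22 were lower in Ov4Carbo7 than in Ov4Carbo4 by adjusted p (27.1% of all genes), with a median of −0.60 against −0.05 over all genes. In the same contrast 4 of 9 members passed by adjusted p, against 51.1% of all genes: CCNE2 (−0.88, adjusted p = 0.035), CDK4 (−0.28, adjusted p = 0.0327), CDK6 (0.62, adjusted p = 0.0465) and CDKN1B (0.38, adjusted p = 0.0384). Each missed the threshold in some of the 15 fits that left out 1 library: CCNE2 in 4 (adjusted p up to 0.111), CDK4 in 4 (up to 0.139), CDK6 in 8 (up to 0.159) and CDKN1B in 7 (up to 0.105).

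**Figure D5:**
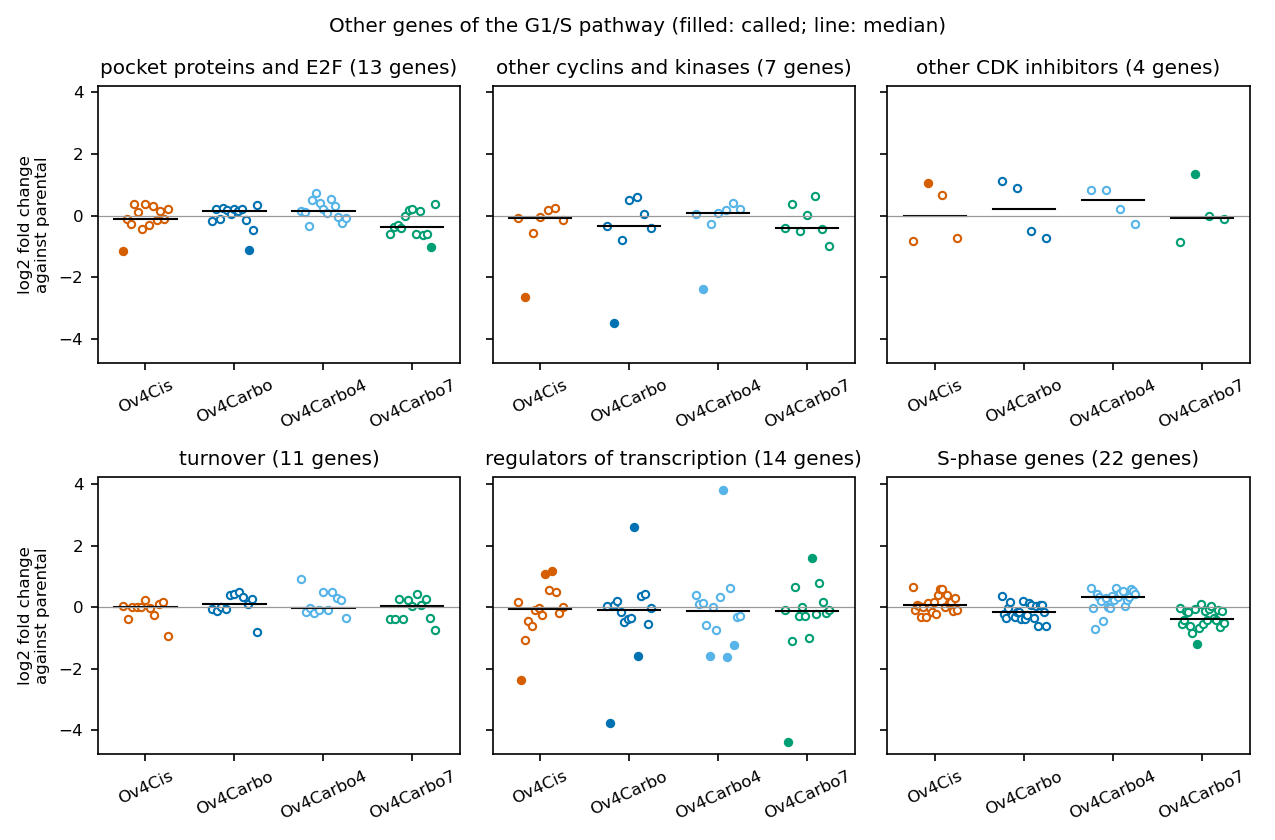
Log2 fold change against the parental line (vertical axis) of the genes of 6 lists of the G1 to S pathway, with 1 dot for each gene in each resistant line, filled where called, and the list median as a bar. The S-phase genes sit above 0 in Ov4Carbo4 (median 0.32) and below 0 in Ov4Carbo7 (median −0.39), and no turnover gene is filled.

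The genes whose pattern was most like that of a member were taken as the 2 highest Pearson correlations over the 15 samples among 11969 expressed genes, as a description in which samples of a line share its history. For CCNE1 they were EFNB2 (0.94) and ABHD17C (0.94), and for CCNE2 MEPCE (0.96) and SERBP1 (0.95). For CDK4 they were ATP2A2 (0.94) and APPL2 (0.92), and for CDK6 FGF12 (0.95) and the pseudogene HSPB1P1 (0.95). For CDKN1B they were FOXJ2 (0.92) and HERC3 (0.92), for CDKN2B TTC7A (0.94) and EFHD1 (0.94), and for CCND3 SIMC1 (0.87) and TACC2 (0.86). EFNB2, an ephrin ligand gene, had line means of 5.05 in the parental line and 2.89 to 3.66 in the resistant lines, the same split as CCNE1. FGF12 had means of 3.20 in the parental line, 2.86 in Ov4Cis and 1.09 to 1.82 in the carboplatin lines, the same split as CDK6.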

How the data were processed

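The authors deposited 1 table of log2 RPKM values after conditional quantile normalization (cqn), per the file headers and name, with 1 column for each of 15 samples; a threshold on genes is named there but not defined. BWA 0.7.15-r1140, HTSeq, hg19 and GRCh37 are listed, with no role, per the submitters' processing notes. Sample medians all lay near 2.77, so a change in total RNA between lines cannot be read from these values, and depth is unknown. No samples were identical. Symbols matched 16448 genes; gene order came from GENCODE v29 (16499 genes) and promoters from RefSeq GRCh38.p14, both of another build, so other coordinates are not given.

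limma 3.58.1 (R 4.3.3; lmFit, eBayes) was fitted to all 16604 genes and 15 samples with 1 coefficient for each line, for 10 contrasts and an F-test, two-sided, with Benjamini-Hochberg adjustment over all genes in each. Intervals are 95% and unadjusted. The fit was tested on simulated data. The labels call the replicates biological but do not say how separate the cultures were, so p-values measure only the spread between these samples.

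The members and lists were chosen with earlier results of these data known. The rule named all members, the 3 genes of each list with the largest called fold against parental, the 3 nearest genes of the table on each side (the nearest 2 are given; 1 item is not reported here), and for each member that passed the F-test the 2 most similar genes with a mean of at least log2 RPKM 1. Alternatives were log2(RPKM + 1), a mean filter, a variance trend, quantile and median scaling, a replicate block, fits to just the lines compared, a title-series term or 1 series alone, no fold limit, and leaving out each sample. The count of adjacent lines that differ was added after the data were seen.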

Additional observations from a re-analysis of the deposited data

Results flagged for a closer look

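Flagged were 7 direct limma contrasts of a member between resistant lines, whose sign is the first line minus the second. Of these 5 were called. The others, of CDKN1B, were under the fold limit and joined lines with opposite directions against parental. The 7 are not all that differ: with no fold limit 20 of 54 member comparisons between resistant lines had an adjusted p under 0.05. By that rule 51.1% of all genes passed in Ov4Carbo7 against Ov4Carbo4. For the other pairs of resistant lines the share of all genes is not given here, so the count is not a result about the members. CDK6 was higher in Ov4Cis than in Ov4Carbo by 1.18 (adjusted p = 0.00258), than in Ov4Carbo4 by 1.82 (adjusted p = 7.23e-05) and than in Ov4Carbo7 by 1.20 (adjusted p = 0.00187). All 3 Ov4Cis samples lay above all 9 carboplatin samples in CDK6. CDKN2B was lower in Ov4Cis than in Ov4Carbo, with a difference of −1.01 (adjusted p = 0.00304); it was −0.78 without Ov4Carbo replicate 3, −0.84 without Ov4Cis replicate 1 and −0.88 on log2(RPKM + 1), under the fold limit, and the adjusted p was 0.0525 with only the groups compared. CCNE2 was higher in Ov4Cis than in Ov4Carbo7 by 1.01 (adjusted p = 0.0235), with adjusted p values of 0.0577 to 0.0805 without Ov4Carbo7 replicate 1 or 2 or Ov4Cis replicate 2 or 3.

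CDKN1B differed between Ov4Carbo7 and 2 other lines, although against parental neither the Ov4Carbo7 difference (0.34, adjusted p = 0.0673) nor the Ov4Cis one (−0.34, adjusted p = 0.0792) passed, and the Ov4Carbo one (−0.44, adjusted p = 0.0296) was lost in 7 of 24 alternatives: Ov4Carbo7 minus Ov4Carbo was 0.79 (adjusted p = 0.00107) and Ov4Cis minus Ov4Carbo7 was −0.69 (adjusted p = 0.00215), with all 3 samples of Ov4Carbo7 above all parental samples and all samples of Ov4Cis and Ov4Carbo below them. The second of these was −0.43 with an adjusted p of 0.218 with a term for the title series. No group had 4 or more samples, so no single sample was tested for standing apart.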

How the results depend on the processing

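Of 846 fold changes of members against parental under the alternatives, 822 kept direction and call (adjusted p under 0.05 with the fold limit), 9 became called, 7 were no longer called and 8 reversed. By the 0.05 threshold alone, 23 moved under it (10 of them CCND1) and 24 no longer passed, 10 of them CCNE2 in Ov4Carbo7 and 7 CDKN1B in Ov4Carbo. The reversed values were all of members that were not called: CCNE2 in Ov4Cis was −0.16 without parental replicate 1 (−0.16 to 0.37 over the fits without 1 library), CCNE2 in Ov4Carbo4 was −1.02 with the title-series term and −0.30 to 0.24 without 1 library, CDKN2A in Ov4Carbo was −0.10 to 0.36 without 1 library, and with the title-series term CDKN2A was 0.54 in Ov4Carbo4 and 0.65 in Ov4Carbo7 (adjusted p = 0.0486). That term is estimated from Ov4Carbo replicate 1 against replicates 2 and 3 alone. The count of members called in Ov4Cis was 1 on log2(RPKM + 1), 4 with no fold limit and 1 to 2 without 1 library. In Ov4Carbo it was 4 with no fold limit and 2 to 3 without 1 library, in Ov4Carbo4 4 with the title-series term and 3 under the others, and in Ov4Carbo7 5 with no fold limit and 2 to 4 without 1 library. Between resistant lines the count was 3 on log2(RPKM + 1), 20 with no fold limit and 4 to 7 without 1 library. The share of all genes under these settings is not given here. The F-test count was 6 to 8 without 1 library, and the count of adjacent lines that differ was 7 with the title-series term and 3 to 6 without 1 library. The cause was not tested.

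Pooled over all lines, the replicate numbers gave no clear pairing: deviations of same-numbered samples of different lines correlated at −0.50 to 0.54 (12 of 30 pairs over 0.1), those of other samples at −0.51 to 0.61, and 6 of 15 samples correlated best with their own number. Same-numbered samples correlated at 0.54, 0.07 and 0.27 between parental and Ov4Cis. The values were 0.33, 0.27 and 0.32 between Ov4Cis and Ov4Carbo7, and 0.37, −0.08 and 0.25 between parental and Ov4Carbo7. Between parental and Ov4Carbo they were −0.50, −0.16 and −0.27. Pairing among just some of the lines was not tested. With the replicate block 2 members were called in Ov4Cis, 2 in Ov4Carbo, 3 in Ov4Carbo4, 3 in Ov4Carbo7, 5 between resistant lines and 7 in the F-test, the same counts as without it, and 3 adjacent lines differed. By adjusted p alone, CDKN1B in Ov4Carbo (0.0504) and CCNE2 in Ov4Carbo7 (0.063) against parental missed the threshold with the block.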
